A study of Homo sapiens with 18 samples.

Results

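A375M2 is a human melanoma line, and the comparison described here sets 3 arrays of A375M2 cells carrying short hairpin RNA (shRNA) against FHL2 beside 3 arrays of A375M2 cells carrying a GFP vector, out of 18 arrays in the series. The members were all the genes that a single-gene probe set represented: 10940 of 11232 such genes passed the filter on low values and were tested. The FHL2 shRNA arm was transduced with a mixture of 3 FHL2-targeting constructs that confers puromycin resistance, and the control arm with a GFP-expressing lentivirus; the labels do not settle which of the GFP vectors they mention was used. Both arms were sorted for GFP and kept under selection, and RNA was taken from 3 separate experiments and processed together. The remaining arms were A375M2 cells with PMEL, A375M2 cells with shRNA against NFYA, and C32 melanoma cells with the GFP vector or with the FHL2 shRNA, at 3 arrays each. No arm is labelled as carrying a non-targeting shRNA, and each transduced population is a pool of cells, so an effect of the hairpin vector or its selection cannot be told apart from an effect of less FHL2 in the comparison with GFP.

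FHL2 is a scaffold protein of the LIM-only family: it holds no catalytic domain and binds integrin tails, focal adhesion proteins, transcription factors and co-activators, and it shuttles between adhesions and the nucleus. It is itself a target of serum response factor in contractile cells and has been studied as a co-regulator of AP-1, beta-catenin and androgen receptor. Melanoma cells move between a pigmented state held by MITF and dedifferentiated states marked by receptor kinases such as AXL, and the study's title places FHL2 in that setting.

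Values are log2 array signals as the authors deposited them, and each difference is FHL2 shRNA minus GFP in log2 units, so that 1 is a doubling. A gene was called when the limma test across all genes gave a Benjamini-Hochberg adjusted p under 0.05, and 2-fold calls also needed a difference of at least 1 both as deposited and with values under log2 4 set to 4. "Near the floor" below means a mean under log2 4, where the arms differ in their lowest values. The 2 arms also differed on control probe sets: the 3 probe sets for 18S ribosomal RNA averaged 12.48 to 12.55 on the GFP arrays and 14.10 to 14.22 on the FHL2 shRNA arrays, the added poly-A controls 6.92 to 6.94 and 6.10 to 6.33, and the 3′ minus 5′ end signal of actin, a measure of RNA integrity, 0.53 to 0.76 and 0.97 to 1.12; their part in the results was not tested. The labels do not say whether the 3 experiments were separate transductions, so the p-values measure the spread between these arrays.

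FHL2 itself read 11.27, 11.18 and 11.19 on the GFP arrays and 7.01, 7.26 and 7.25 on the FHL2 shRNA arrays. All shRNA arrays lay below all GFP arrays, and FHL2 fell by 4.04, 16.4-fold (SE 0.14, adjusted p = 1.62e-14). In the NFYA shRNA arm FHL2 was at 11.10. NFYA, which gives NF-Y its contact with CCAAT boxes and is the target in that other arm, fell by 0.73 with FHL2 shRNA (adjusted p = 1.04e-06), and PMEL fell by 2.22, with the shRNA arm near the floor. Across the actin-linked LIM proteins the arms moved both ways. The counts that follow include FHL2, the shRNA target, among the falls at 2-fold or more. In the list of FHL and actin-linked LIM proteins, 14 of 28 tested members rose and 11 fell, with 8 and 5 of them at 2-fold or more, and the median difference was 0.21 (0.080 to 0.31 over the alternatives). TRIP6, a zyxin relative at focal adhesions, fell by 1.99, and LIMA1, which crosslinks actin filaments, fell by 1.46. MICAL2, an enzyme that oxidises actin, rose by 2.58, and TES and CSRP1, both cytoskeletal LIM proteins, rose by 1.78 and by 1.62.

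The difference between the arms reached most genes on the array. Of the 10940 genes, 9341 were called (85.4%), 4497 higher (41.1%) and 4844 lower (44.3%), and the 6 arrays did not overlap at 86.9% of the genes. At 2-fold or more, 1516 genes were higher (13.9%) and 1638 lower (15.0%); these 2 shares are the background against which every 2-fold count of a list below is to be read. The median difference of all genes was -0.04, and the median size was 0.62 against a median SE of 0.07, so a call by itself says little and sizes carry the description. When arrays were centred on their medians, more genes were higher than lower, 4959 against 4381, and 1860 against 1560 at 2-fold or more. A range in parentheses after a list's median gives its lowest and highest value over the alternatives tried, and stands where one of them moved it by over 1.5 times. FHL2's own difference was one of many of its size: 214 genes changed 8-fold or more with neither arm near the floor.

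Low values need a separate reading. With both arms near the floor there were 356 genes, of which 240 were called and 85 reached a deposited difference of 1 or more, running from -2.81 to 1.91 with a median of -0.14. A further 456 genes were near the floor in the GFP arm only and 294 in the FHL2 shRNA arm only. Setting values under log2 4 to 4 removed 277 of the 3431 2-fold calls; of the 3154 that stayed, 303 had the GFP arm and 163 the shRNA arm near the floor. A difference with an arm near the floor depends on where that floor lies, and the arm is named beside each such value below.

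**Figure D1:**
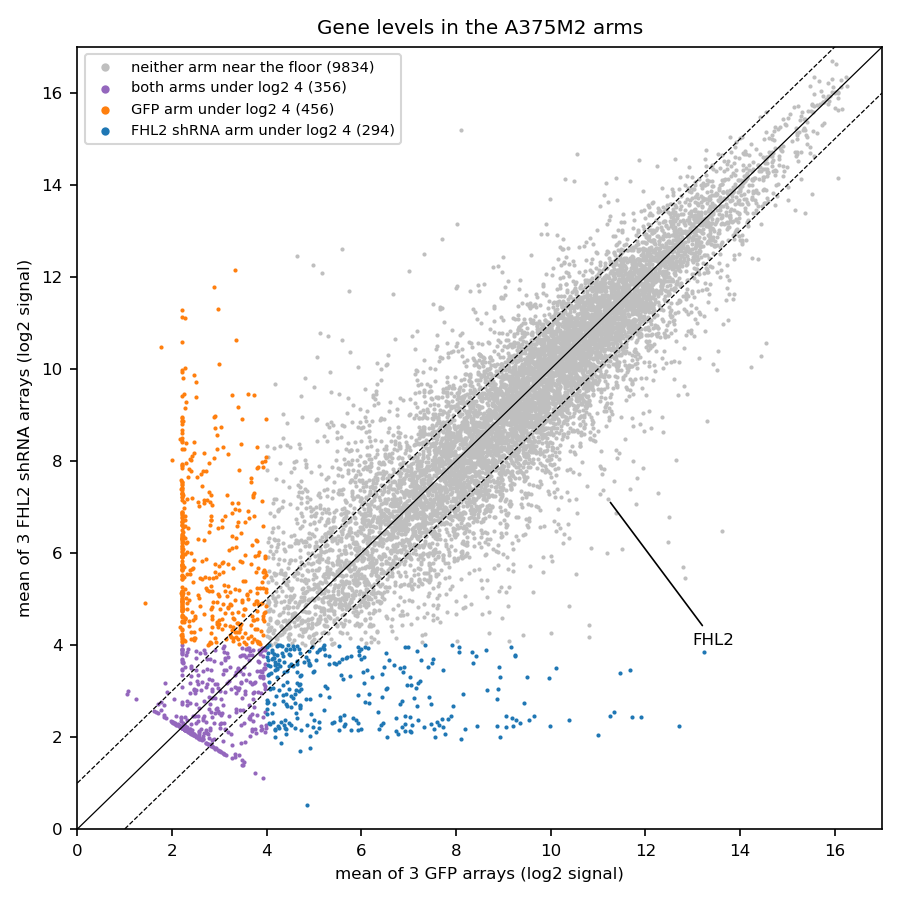
Mean log2 signal of each of the 10940 tested genes on the 3 FHL2 shRNA arrays (vertical axis) against the 3 GFP arrays (horizontal axis). Grey points have neither arm near the floor, coloured points have the GFP arm only (456), the shRNA arm only (294) or both arms (356) under log2 4, and dashed lines mark a difference of 1 either way; FHL2 is marked at 11.21 and 7.17.

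**Figure D2:**
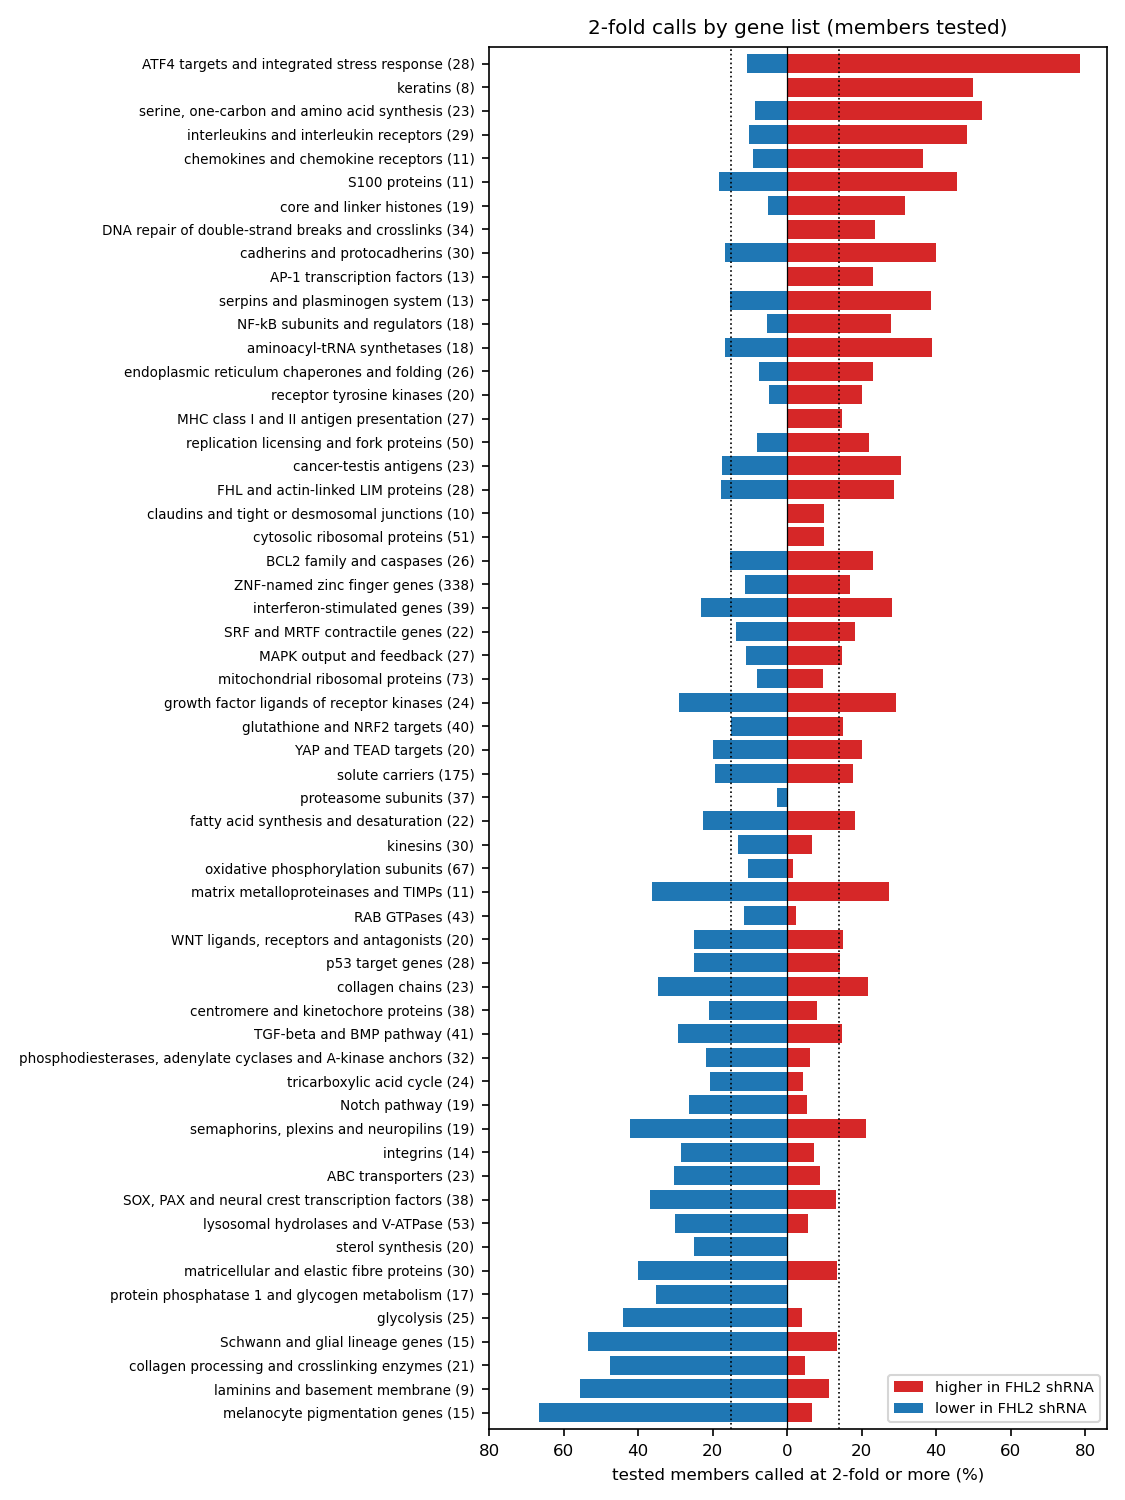
Share of tested members called at 2-fold or more higher (right) and lower (left) in each described gene list, in percent, with the number of tested members beside each name. Dotted lines give the shares over all genes tested, 13.9% higher and 15.0% lower; the ATF4 list reaches farthest to the right.

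Amino acid supply genes rose together. ATF4, a transcription factor made when the integrated stress response slows translation, switches on genes for amino acid import, synthesis and tRNA charging. Among ATF4 targets and integrated stress response genes, 23 of 28 tested members rose and 4 fell, with 22 and 3 of them at 2-fold or more, and the median difference was 1.96. ASNS, the asparagine synthetase, read 10.35, 10.24 and 10.33 on the GFP arrays and 14.10, 14.13 and 14.15 on the FHL2 shRNA arrays. It rose by 3.82, 14.1-fold, with no overlap between arms (SE 0.04, adjusted p = 2.91e-22). ALDH1L2, a mitochondrial folate enzyme, read 6.84, 7.12 and 7.09 on the GFP arrays and 12.18, 12.11 and 12.08 on the FHL2 shRNA arrays and rose by 5.11. ATF3, a stress-induced partner of ATF4, rose by 3.16; CHAC1, which degrades glutathione, rose by 3.62, with the GFP arm near the floor; and STC2, a secreted stress glycoprotein, rose by 4.77, with the GFP arm near the floor. The exception of that size was GDF15, a stress-induced cytokine, at 14.57, 14.52 and 14.54 on the GFP arrays and 10.55, 10.56 and 10.56 on the FHL2 shRNA arrays. It fell by 3.99, against the direction of the other list members named here, and its arrays did not overlap either.

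The windows before the start of 3 ATF4 list genes are shown because their sequence holds the 8-letter pattern TGATGNAA, the core of the C/EBP-ATF response element. The pattern was searched on both strands of the 250 bases before each RefSeq start (GRCh38.p14), and it occurs in 3.19% of 27305 such windows and in 3 of the 24 list members that have one. Each line shows 100 of the 250 bases, 5′ to 3′ on the gene's strand, with the pattern or its reverse complement in capitals.
ASNS, chr7:97872423-97872522, minus strand: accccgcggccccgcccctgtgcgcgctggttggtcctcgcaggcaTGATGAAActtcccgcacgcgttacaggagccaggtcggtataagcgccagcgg
ATF3, chr1:212565170-212565269, plus strand: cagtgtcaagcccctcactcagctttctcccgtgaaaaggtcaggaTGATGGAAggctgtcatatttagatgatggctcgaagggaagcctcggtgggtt
CHAC1, chr15:40953221-40953320, plus strand: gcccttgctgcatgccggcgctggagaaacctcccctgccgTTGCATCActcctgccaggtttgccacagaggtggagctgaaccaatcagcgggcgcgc
A match is a description of the letters only; ASNS, ATF3 and CHAC1 rose by 3.82, by 3.16 and by 3.62, and members without the pattern in this window, such as ALDH1L2, rose as well.

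Serine, one-carbon and amino acid synthesis genes overlapped with that list and moved with it. There, 16 of 23 tested members rose and 6 fell, with 12 and 2 of them at 2-fold or more, and the median difference was 1.08 (1.05 to 1.96 over the alternatives). PHGDH, the first enzyme of serine synthesis, rose by 2.75, PSAT1, the next, rose by 2.17, and CTH, which makes cysteine, rose by 3.40. BCAT1, the cytosolic branched-chain aminotransferase, read 7.99, 7.98 and 8.07 on the GFP arrays and 13.15, 13.10 and 13.21 on the FHL2 shRNA arrays, a rise of 5.14 between arms that did not overlap. ASS1, the argininosuccinate synthase that many melanomas silence, rose by 5.10, with the GFP arm near the floor. TYMS, which makes thymidylate from the same folate pool, fell by 1.48. Of the enzymes that load amino acids onto tRNA, 11 of 18 tested members rose and 4 fell, with 7 and 3 of them at 2-fold or more, and the median difference was 0.61: TARS1, SARS1 and WARS1 rose by 1.92, by 1.85 and by 1.84, while VARS1 fell by 1.82. KARS1 fell by 0.15, and NARS1 differed by -0.03 without passing the test.

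**Figure D3:**
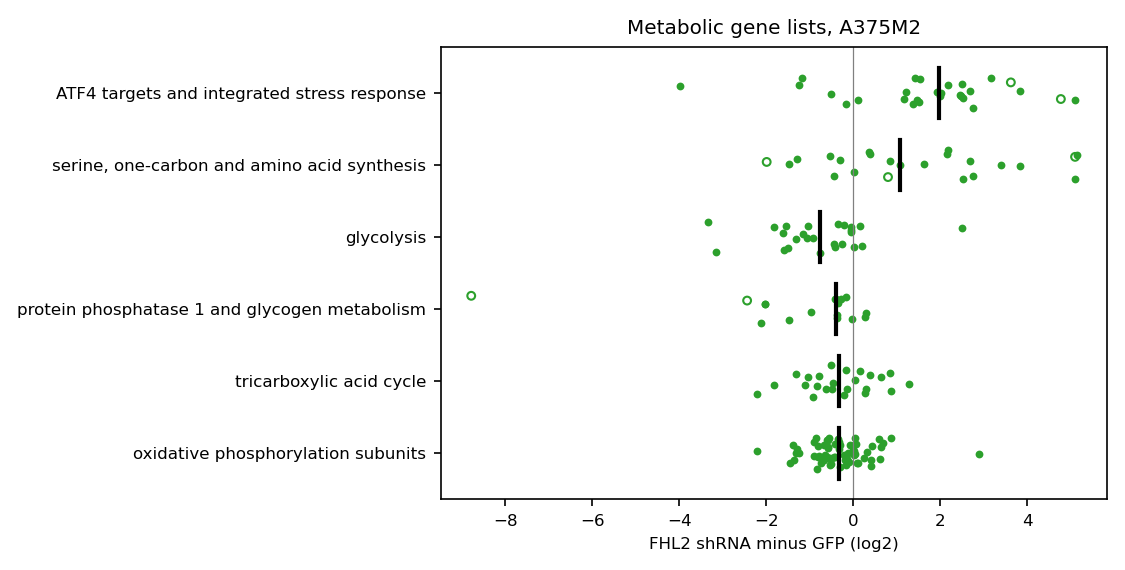
Log2 difference between FHL2 shRNA and GFP (horizontal axis) for every tested member of 6 metabolic gene lists, 1 point a gene, with a bar at the list median and open points where an arm is near the floor. The medians of the 2 upper lists lie at 1.96 and 1.08, and those of glycolysis, glycogen, the tricarboxylic acid cycle and oxidative phosphorylation at -0.77, -0.40, -0.34 and -0.34.

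Genes of carbon metabolism lay mostly lower. Glycolysis turns glucose into pyruvate, and there 2 of 25 tested members rose and 18 fell, with 1 and 11 of them at 2-fold or more, and the median difference was -0.77 (-0.79 to -0.37 over the alternatives). PFKFB2, which makes the activator of phosphofructokinase, read 7.89, 8.12 and 8.002 on the GFP arrays and 4.79, 4.93 and 4.29 on the FHL2 shRNA arrays. It fell by 3.33 (SE 0.13, adjusted p = 9.01e-14), and the arms were well apart. PDK4, a kinase that inhibits pyruvate dehydrogenase, fell by 3.15, HK1, a hexokinase, fell by 1.82, and GPI fell by 1.58. The glucose transporter SLC2A1 was the member that went clearly the other way, at 5.11, 4.75 and 4.70 on the GFP arrays and 7.38, 7.27 and 7.40 on the FHL2 shRNA arrays, and it rose by 2.50. GAPDH and LDHA, both with signals near the top of the scale, differed by -0.06 and -0.06 and did not pass the test. Of glycogen genes, 2 of 17 tested members rose and 13 fell, with 0 and 6 of them at 2-fold or more, and the median difference was -0.40 (-0.99 to -0.30 over the alternatives); GYS1, glycogen synthase, fell by 2.04, PYGL, a glycogen phosphorylase, fell by 2.12, and PPP1R3B, which targets protein phosphatase 1 to glycogen, fell by 2.02.

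In the tricarboxylic acid cycle, 8 of 24 tested members rose and 15 fell, with 1 and 5 of them at 2-fold or more, and the median difference was -0.34. The mitochondrial, NADP-linked IDH2 fell by 2.21, IDH3G and IDH3B of the NAD-linked enzyme fell by 1.32 and by 1.11, and the malic enzyme ME3 fell by 1.82. Subunits of the respiratory complexes shifted less: 13 of 67 tested members rose and 43 fell, with 1 and 7 of them at 2-fold or more, and the median difference was -0.34, so that their share at 2-fold was below that of all genes. ATP5F1D of the ATP synthase fell by 2.22, UQCRC1 and CYC1 of complex III fell by 1.45 and by 1.31, and COX7B2, a testis-type subunit of complex IV, rose by 2.90. The mitochondrial ribosome split evenly: 32 of 73 tested members rose and 33 fell, with 7 and 6 of them at 2-fold or more, and the median difference was 0.02 (-0.043 to 0.12 over the alternatives); MRPL1 rose by 2.93 and MRPL4 fell by 1.61. In the cytosolic ribosome, 28 of 51 tested members rose and 10 fell, with 5 and 0 of them at 2-fold or more, and the median difference was 0.11 (0.078 to 0.21 over the alternatives); RPS18 fell by 0.11 and RPS23 rose by 2.57. Of proteasome subunits, 16 of 37 tested members rose and 17 fell, with 0 and 1 of them at 2-fold or more, and the median difference was 0.03 (-0.045 to 0.13 over the alternatives), the smallest 2-fold share among the lists described, and PSMD11, the member past 2-fold, fell by 1.80.

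Lipid and redox genes were mixed. Fatty acid synthesis and desaturation genes were lower on balance: 7 of 22 tested members rose and 14 fell, with 4 and 5 of them at 2-fold or more, and the median difference was -0.43. FASN, the fatty acid synthase, fell by 2.68, ELOVL2, an elongase of very long polyunsaturated chains, fell by 6.70, with the shRNA arm near the floor, and the related ELOVL7 rose by 4.91, with the GFP arm near the floor. In sterol synthesis, 5 of 20 tested members rose and 14 fell, with 0 and 5 of them at 2-fold or more, and the median difference was -0.23 (-0.27 to -0.13 over the alternatives); TM7SF2, a sterol reductase, fell by 4.25, and SQLE fell by 0.94. Among glutathione and NRF2 genes, MGST1, a membrane-bound glutathione transferase, read 7.39, 7.16 and 7.42 on the GFP arrays and 12.46, 12.49 and 12.54 on the FHL2 shRNA arrays and rose by 5.17, whereas GPX4, which removes lipid peroxides, fell by 1.70 and GPX7 fell by 2.36. Over that list, 14 of 40 tested members rose and 21 fell, with 6 and 6 of them at 2-fold or more, and the median difference was -0.10 (-0.29 to 0.0020 over the alternatives).

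The extracellular matrix was another region of broad change. Collagens are secreted as chains that enzymes hydroxylate, fold, trim and crosslink. Of the chains, 8 of 23 tested members rose and 12 fell, with 5 and 8 of them at 2-fold or more, and the median difference was -0.60 (-0.63 to 0.00 over the alternatives), with 3 members near the floor in both arms and 6 in 1 arm. COL16A1, a fibril-associated collagen, read 10.08, 9.998 and 10.14 on the GFP arrays and 6.77, 6.64 and 6.66 on the FHL2 shRNA arrays and fell by 3.38, and COL5A2 fell by 1.83. COL5A1, its partner chain in type V collagen, rose by 4.94, with the GFP arm near the floor, the opposite direction. COL6A3 had the largest rise of all genes tested, also with the GFP arm near the floor. The processing enzymes leaned to lower values: 4 of 21 tested members rose and 13 fell, with 1 and 10 of them at 2-fold or more, and the median difference was -0.90. PCOLCE, which speeds removal of the procollagen C-propeptide, read 12.85, 12.90 and 12.90 on the GFP arrays and 9.49, 9.41 and 9.49 on the FHL2 shRNA arrays. It fell by 3.42 (SE 0.07, adjusted p = 6.12e-18). The crosslinkers LOXL2 and LOXL4 fell by 2.53 and by 1.98, and the lysyl hydroxylase PLOD3 fell by 1.73. The member that rose at 2-fold or more was SERPINH1, with the GFP arm near the floor, and its difference was larger than any fall in the list.

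Basement membrane genes fell in 7 of 9 cases: 1 of 9 tested members rose and 7 fell, with 1 and 5 of them at 2-fold or more, and the median difference was -1.22. LAMC1, the gamma chain of most laminins, read 14.05, 14.05 and 14.01 on the GFP arrays and 12.82, 12.81 and 12.81 on the FHL2 shRNA arrays and fell by 1.22, and NID1 and HSPG2, which tie laminin to collagen IV, fell by 1.42 and by 1.34. LAMB3, of the epithelial laminin, rose by 1.33. Among matricellular and elastic fibre proteins, 8 of 30 tested members rose and 19 fell, with 4 and 12 of them at 2-fold or more, and the median difference was -0.96 (-1.44 to -0.40 over the alternatives). ACAN, the aggrecan core protein of cartilage, read 10.96, 10.78 and 10.84 on the GFP arrays and 6.12, 6.30 and 5.92 on the FHL2 shRNA arrays and fell by 4.75, and LUM, a collagen-binding proteoglycan, fell by 3.74. THBS2, a thrombospondin, went the other way, at 5.24, 5.60 and 5.22 on the GFP arrays and 8.76, 8.90 and 8.91 on the FHL2 shRNA arrays, and rose by 3.50. SPP1, osteopontin, fell by 7.09 by the probe set used here, and its other probe set gave 1.84; SPP1, MET, NRP2, TGFA, TPM4 and TYR are the genes named with values that have a probe set of opposite sign.

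Receptors for this matrix changed unevenly. Integrins are alpha-beta pairs that FHL2 binds at their tails, and 4 of 14 tested members rose and 7 fell, with 1 and 4 of them at 2-fold or more, and the median difference was -0.24 (-0.26 to -0.14 over the alternatives). ITGA9 and ITGA4, which share tenascin and osteopontin as ligands, read lower: ITGA9 fell by 3.01 and ITGA4 fell by 2.27. ITGB1, the common beta chain, fell by 0.26, and ITGA6, the laminin-binding alpha chain, rose by 0.83. ITGA10 fell the most of the integrins tested, with the shRNA arm near the floor. In the metalloproteinase and TIMP list, 4 of 11 tested members rose and 6 fell, with 3 and 4 of them at 2-fold or more, and the median difference was -0.87 (-1.01 to -0.076 over the alternatives): TIMP2 fell by 2.66, MMP8 fell by 2.80, and TIMP1 rose by 1.05. MMP1 read 3.40, 3.20 and 3.36 on the GFP arrays, near the floor, and 12.16, 12.17 and 12.12 on the FHL2 shRNA arrays. ADAM12 fell by 1.99 and ADAM19 rose by 2.12. Of serpins and the plasminogen system, 10 of 13 tested members rose and 3 fell, with 5 and 2 of them at 2-fold or more, and the median difference was 0.76 (0.67 to 1.40 over the alternatives). SERPINF1, the anti-angiogenic factor PEDF, read 13.57, 13.53 and 13.74 on the GFP arrays and 6.38, 6.44 and 6.61 on the FHL2 shRNA arrays. The GFP arrays were far above the shRNA arrays, and it fell by 7.14 (SE 0.13, adjusted p = 1.19e-18). PLAUR, the urokinase receptor, rose by 2.24, and SERPINB8 rose by 3.86. SERPINH1 had the largest rise of the list, with the GFP arm near the floor.

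Cell-cell adhesion genes changed both ways. Of cadherins and protocadherins, 16 of 30 tested members rose and 10 fell, with 12 and 5 of them at 2-fold or more, and the median difference was 0.24. PCDH7, a protocadherin, read 12.57, 12.41 and 12.51 on the GFP arrays and 6.94, 6.96 and 6.48 on the FHL2 shRNA arrays and fell by 5.70, and PCDH9 fell by 2.75, while the desmosomal cadherins DSC2 and DSC3 rose by 5.33 and by 5.01, both with the GFP arm near the floor. Of claudins and other tight or desmosomal junction genes, 4 of 10 tested members rose and 5 fell, with 1 and 0 of them at 2-fold or more, and the median difference was -0.28 (-0.30 to 0.062 over the alternatives). Among keratins, the intermediate filaments of epithelia, 7 of 8 tested members rose and 1 fell, with 4 and 0 of them at 2-fold or more, and the median difference was 1.39 (0.77 to 1.88 over the alternatives), with 2 members near the floor in both arms and 4 in 1 arm. KRT18 and KRT10, both well above the floor, rose by 1.32 and by 1.46, and KRT80 rose by 6.05, with the GFP arm near the floor. In the S100 family of calcium-binding proteins, 7 of 11 tested members rose and 2 fell, with 5 and 2 of them at 2-fold or more, and the median difference was 0.997. S100A2, a squamous-type member, read 5.11, 5.03 and 5.38 on the GFP arrays and 12.15, 12.09 and 12.04 on the FHL2 shRNA arrays, and the arms lay 6.92 apart. S100A4 rose by 2.78, whereas S100B and S100A1, used as melanocytic and glial markers, were lower: S100B fell by 1.87 and S100A1 fell by 1.89. Of 12 epithelial markers listed, 6 were on the table, and all 6 were called higher in the shRNA arm. KRT14 was near the floor in both arms, and KRT8, DSC2 and KRT7 in the GFP arm only. The log2 of the summed signal of the 6 ran from 11.56 to 11.72 on the GFP arrays and from 13.07 to 13.14 on the shRNA arrays. KRT18, averaging 11.4 and 12.8, was the highest of them in both arms. Of 10 fibroblast markers listed, 6 were on the table and 5 were tested, of which 1 rose and 4 fell. COL1A2 and DCN were near the floor in both arms and FAP in the shRNA arm. The sums were 11.50 to 11.69 on the GFP arrays and 8.92 to 9.04 on the shRNA arrays, and LUM alone averaged 11.1 and 7.4. Of 8 leukocyte markers listed, 2 were on the table. PTPRC was near the floor in both arms. LYZ, lysozyme, was near the floor on the GFP arrays and averaged 9.45 on the shRNA arrays. The sums of the 2 markers were 4.07 to 4.38 and 9.34 to 9.51. The part that markers of other cell types have in these values was not tested.

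**Figure D4:**
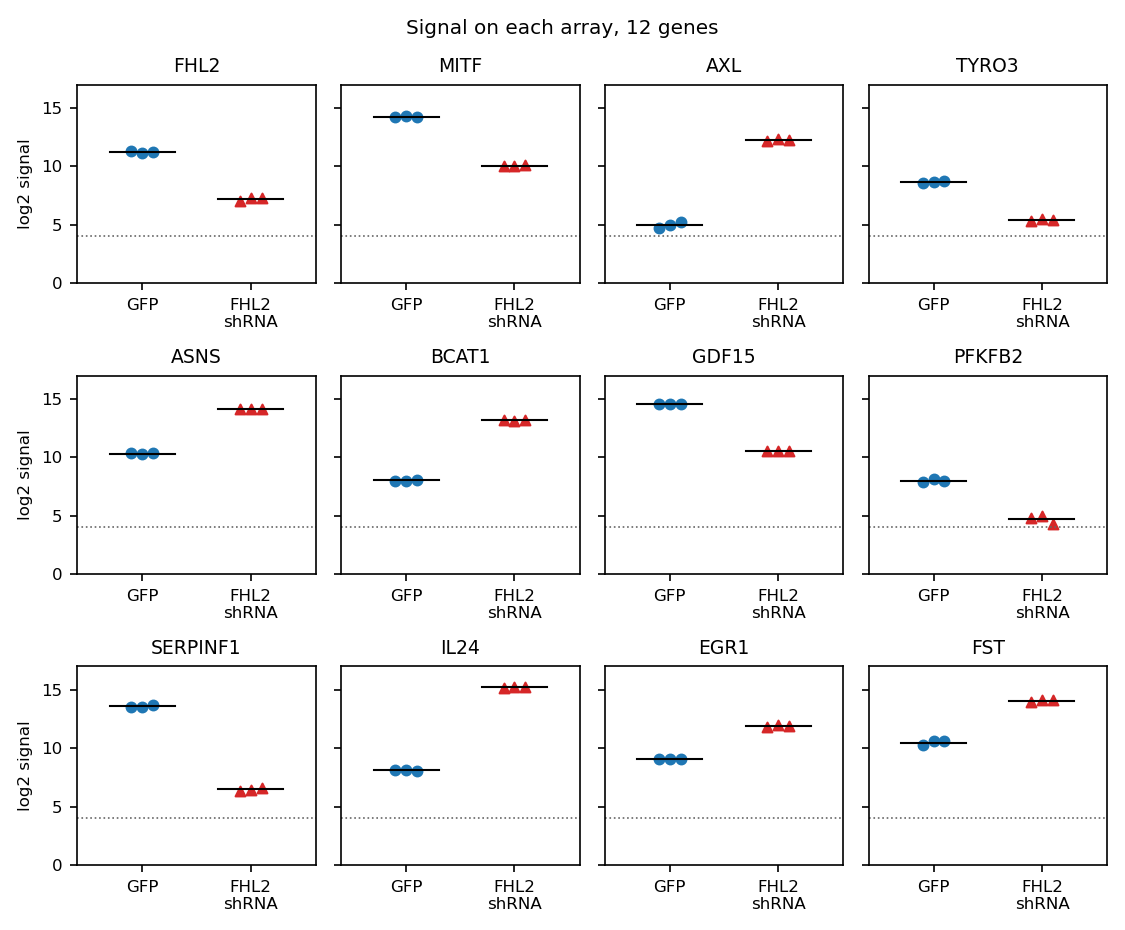
Deposited log2 signal on each array (vertical axis) for 12 genes, with GFP arrays 1 to 3 as circles, FHL2 shRNA arrays 1 to 3 as triangles and a line at each arm's mean. The dotted line marks log2 4. Only genes whose 3 shRNA arrays lie wholly on one side of the 3 GFP arrays were drawn, as is so at 86.9% of all genes tested.

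Receptor kinases and their ligands changed both ways. At 2-fold or more, 25.0% of the receptors and 58.3% of the ligands were called, against 28.8% of all genes. Among receptors, 8 of 20 tested members rose and 8 fell, with 4 and 1 of them at 2-fold or more, and the median difference was -0.08 (-0.10 to 0.28 over the alternatives). AXL, the receptor for GAS6 that marks dedifferentiated melanoma cells, read 4.74, 4.97 and 5.24 on the GFP arrays and 12.17, 12.36 and 12.28 on the FHL2 shRNA arrays. It rose by 7.29 (SE 0.18, adjusted p = 1.25e-16), while TYRO3, of the same family and a regulator of MITF in melanocytes, read 8.56, 8.62 and 8.78 on the GFP arrays and 5.35, 5.47 and 5.42 on the FHL2 shRNA arrays and fell by 3.24. PROS1, a ligand of TYRO3, fell by 3.31. MET, the HGF receptor, rose by 0.60, INSR rose by 1.53, FGFR3 rose by 1.43, and ERBB3, the neuregulin receptor of the neural crest lineage, fell by 0.70. Over the ligands, 13 of 24 tested members rose and 11 fell, with 7 and 7 of them at 2-fold or more, and the median difference was 0.22 (-0.61 to 0.32 over the alternatives). EGF and the KIT ligand KITLG, read at 7.48 and 7.03 on the GFP arrays on average, were near the floor with FHL2 shRNA. BTC, another ligand of the EGF receptor, and BDNF, the TRKB ligand, were near the floor on the GFP arrays and averaged 7.83 and 8.92 with FHL2 shRNA. TGFA, also an EGF receptor ligand, rose by 0.59. HGF, the MET ligand, had the largest fall of all genes tested, with the shRNA arm near the floor. IGFBP6, which holds IGF2, read 7.23, 6.98 and 6.99 on the GFP arrays and 10.81, 10.62 and 10.70 on the FHL2 shRNA arrays and rose by 3.64, and IGFBP2 fell by 3.45.

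Downstream of these receptors, ERK signalling induces early genes and its own phosphatases. Among such output and feedback genes, 13 of 27 tested members rose and 11 fell, with 4 and 3 of them at 2-fold or more, and the median difference was 0.09 (-0.0068 to 0.19 over the alternatives). EGR1, an immediate early factor, read 9.05, 9.12 and 9.12 on the GFP arrays and 11.85, 11.95 and 11.93 on the FHL2 shRNA arrays and rose by 2.81. MYC, in contrast, read 10.63, 10.57 and 10.63 on the GFP arrays and 8.29, 8.33 and 8.36 on the FHL2 shRNA arrays and fell by 2.28. The feedback inhibitor SPRY4 fell by 2.10, SPRY2 differed by -0.01 without passing the test, and CCND1 and DUSP5 rose by 1.52 and by 1.49. Of AP-1 factors, 9 of 13 tested members rose and 4 fell, with 3 and 0 of them at 2-fold or more, and the median difference was 0.42; FOS averaged 7.02 on the GFP arrays and 9.02 with FHL2 shRNA, and JUN and FOSL1 rose by 0.99 and by 0.65. In the SRF and MRTF list, 10 of 22 tested members rose and 10 fell, with 4 and 3 of them at 2-fold or more. The list includes FHL2, the shRNA target, as its largest fall. The median difference was -0.07 (-0.15 to 0.030 over the alternatives). TPM1 and MYH10 fell by 1.55 and by 2.34, TPM2 and TPM4 rose by 1.33 and by 1.38, and TAGLN3 rose by 5.19. Among YAP and TEAD targets, 10 of 20 tested members rose and 8 fell, with 4 and 4 of them at 2-fold or more, and the median difference was 0.11 (0.071 to 0.25 over the alternatives): CCN2 fell by 2.03 and F3, tissue factor, rose by 2.81.

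Developmental signalling genes changed both ways. In the TGF-beta and BMP pathway, 16 of 41 tested members rose and 23 fell, with 6 and 12 of them at 2-fold or more, and the median difference was -0.19 (-0.46 to -0.092 over the alternatives). FSTL1 and BMPR1B, a secreted BMP antagonist and a BMP receptor, fell by 3.93 and by 3.94, and ID4, a BMP-induced inhibitor of bHLH factors, fell by 3.86. TGFB2 fell by 4.74, with the shRNA arm near the floor, and INHBA, the activin A chain, rose by 0.43. Of Notch genes, 7 of 19 tested members rose and 9 fell, with 1 and 5 of them at 2-fold or more, and the median difference was -0.06 (-0.36 to 0.040 over the alternatives): the ligand JAG1 rose by 2.06, and the target factors HEY1 and HEY2 fell by 3.32 and by 1.45. In the WNT list, 7 of 20 tested members rose and 10 fell, with 3 and 5 of them at 2-fold or more, and the median difference was -0.24 (-0.41 to -0.077 over the alternatives): the secreted antagonist DKK1 read 7.66, 7.87 and 7.73 on the GFP arrays and 10.98, 11.003 and 11.07 on the FHL2 shRNA arrays and rose by 3.27, and the receptors FZD4 and FZD1 fell by 2.96 and by 1.65. Guidance cues were divided as well. For semaphorins, plexins and neuropilins, 7 of 19 tested members rose and 10 fell, with 4 and 8 of them at 2-fold or more, and the median difference was -0.36 (-0.69 to -0.20 over the alternatives); NRP1 rose by 2.59 and NRP2 fell by 1.67. EFNB2 and EPHA4 rose by 3.26 and by 3.59, and EFNA5 fell by 3.45.

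Secreted immune signals mostly rose. Of interleukins and their receptors, 22 of 29 tested members rose and 6 fell, with 14 and 3 of them at 2-fold or more, and the median difference was 0.96 (0.76 to 1.45 over the alternatives), 10 with 1 arm near the floor. IL24, a cytokine of the IL10 family first found in melanoma, read 8.10, 8.13 and 8.07 on the GFP arrays and 15.16, 15.22 and 15.24 on the FHL2 shRNA arrays. The arms did not overlap, and IL24 rose by 7.10 (SE 0.13, adjusted p = 2.22e-18). IL1A, an alarmin, rose by 7.83, and IL31RA rose by 4.40. In chemokines, 7 of 11 tested members rose and 3 fell, with 4 and 1 of them at 2-fold or more, and the median difference was 0.90 (0.58 to 1.69 over the alternatives), with 3 members near the floor in both arms and 1 in 1 arm; CXCL3, CXCL8, CXCL2 and CXCL1, which draw neutrophils, rose by 3.58, by 2.87, by 1.81 and by 1.69. Of NF-kB subunits and regulators, 8 of 18 tested members rose and 5 fell, with 5 and 1 of them at 2-fold or more, and the median difference was 0.22 (0.032 to 0.32 over the alternatives); NFKBIA rose by 1.10 and RELB rose by 1.38. Interferon-stimulated genes did not go one way: 18 of 39 tested members rose and 18 fell, with 11 and 9 of them at 2-fold or more, and the median difference was -0.10 (-0.15 to 0.10 over the alternatives). ISG20 and IRF1 rose by 3.25 and by 2.18, and IFITM1 and MX2 fell by 3.22 and by 2.34. Of antigen presentation genes, 6 of 27 tested members rose and 14 fell, with 4 and 0 of them at 2-fold or more, and the median difference was -0.12 (-0.28 to -0.018 over the alternatives); HLA-C, HLA-E and HLA-B fell by 0.88, by 0.89 and by 0.76, with the reservation that HLA genes share probe sequence, and the class II activator CIITA rose by 1.10. CD274, the ligand of PD-1, averaged 6.62 with FHL2 shRNA and was near the floor on the GFP arrays.

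Lineage genes were mostly lower in the shRNA arm. MITF, the master regulator of melanocytes, read 14.20, 14.31 and 14.20 on the GFP arrays and 10.06, 10.01 and 10.09 on the FHL2 shRNA arrays and fell by 4.18 (SE 0.05, adjusted p = 1.15e-20). Among neural crest transcription factors, 10 of 38 tested members rose and 23 fell, with 5 and 14 of them at 2-fold or more, and the median difference was -0.49 (-0.88 to -0.39 over the alternatives). SOX10, which keeps the melanocyte and glial lineages, fell by 0.42, and MSX1 and SOX11 rose by 2.45 and by 3.34. Schwann and glial genes followed: 5 of 15 tested members rose and 10 fell, with 2 and 8 of them at 2-fold or more, and the median difference was -1.24; NES, FABP7 and NRCAM fell by 2.03, by 2.68 and by 2.18, and GAP43, of growing axons, rose by 3.39. Of melanocyte pigmentation genes, 1 of 15 tested members rose and 14 fell, with 1 and 10 of them at 2-fold or more, and the median difference was -2.22 (-2.36 to -1.21 over the alternatives). MLANA was near the floor in both arms, OCA2, a melanosome transporter, was the riser, and CAPN3, a calpain, read 10.83, 10.81 and 10.77 on the GFP arrays and 4.29, 3.53 and 4.72 on the FHL2 shRNA arrays.

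MITF binds the M-box, TCATGTG, and the windows of the 4 pigmentation genes that hold those 7 letters within 250 bases before the start are shown for that reason. Of the 15 tested pigmentation genes, 13 have a RefSeq window and 4 hold the M-box, on either strand, which 2.58% of all 27305 windows do. Each line shows 100 of the 250 bases, read as before from 5′ to 3′ on the gene's strand in GRCh38.p14, and capitals mark each occurrence in it. GPNMB holds 2 occurrences in its 250 bases, not all of them in the line shown.
TYR, chr11:89177724-89177823, plus strand: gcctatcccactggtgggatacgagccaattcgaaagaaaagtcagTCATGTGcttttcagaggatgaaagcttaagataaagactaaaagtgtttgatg
TYRP1, chr9:12693194-12693293, plus strand: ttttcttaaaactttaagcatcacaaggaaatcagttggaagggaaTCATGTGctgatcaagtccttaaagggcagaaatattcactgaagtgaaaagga
GPR143, chrX:9765855-9765954, minus strand: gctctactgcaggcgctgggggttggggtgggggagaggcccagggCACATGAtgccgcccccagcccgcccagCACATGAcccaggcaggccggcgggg
GPNMB, chr7:23246606-23246705, plus strand: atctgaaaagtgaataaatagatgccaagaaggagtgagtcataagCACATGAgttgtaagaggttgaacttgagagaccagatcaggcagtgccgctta
TYRP1, a melanosomal enzyme, averaged 9.24 on the GFP arrays and GPR143, a melanosome receptor, 8.18; both were near the floor with FHL2 shRNA. GPNMB, a melanosome and lysosome glycoprotein, fell by 4.16, and TYR, tyrosinase, fell by 1.76, with the shRNA arm near the floor from a mean of only 4.44. Here too a match describes the letters only. Of the 15 tested pigmentation genes 14 fell, so members outside these 4 fell as well.

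Lysosomal genes leaned lower. Of lysosomal hydrolases and V-ATPase subunits, 12 of 53 tested members rose and 33 fell, with 3 and 16 of them at 2-fold or more, and the median difference was -0.34. The proteases CTSK and CTSB fell by 3.15 and by 1.84, ASAH1, acid ceramidase, fell by 2.19, and PSAP, the saposin precursor, fell by 1.17. Among endoplasmic reticulum chaperones, 11 of 26 tested members rose and 14 fell, with 6 and 2 of them at 2-fold or more, and the median difference was -0.15 (-0.39 to -0.047 over the alternatives); HERPUD1 and DNAJB9 rose by 1.60 and by 1.38, while the disulfide isomerases PDIA4 and PDIA3 fell by 1.26 and by 0.92. Of RAB GTPases, 16 of 43 tested members rose and 20 fell, with 1 and 5 of them at 2-fold or more, and the median difference was -0.14 (-0.27 to -0.036 over the alternatives).

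Cell cycle genes changed both ways. Replication licensing and fork proteins were higher on balance: 31 of 50 tested members rose and 10 fell, with 11 and 4 of them at 2-fold or more, and the median difference was 0.23. CDT1, CDC6 and MCM10, which load and fire origins, rose by 2.35, by 2.12 and by 2.26, and LIG1 and POLD1 fell by 1.79 and by 1.69. Of double-strand break and crosslink repair genes, 20 of 34 tested members rose and 11 fell, with 8 and 0 of them at 2-fold or more, and the median difference was 0.28. CHEK1, the S-phase checkpoint kinase, read 6.93, 7.32 and 7.26 on the GFP arrays and 9.92, 9.99 and 9.97 on the FHL2 shRNA arrays and rose by 2.79, and FANCG, of the Fanconi core complex, rose by 2.73. Kinesins leaned lower: 8 of 30 tested members rose and 21 fell, with 2 and 4 of them at 2-fold or more, and the median difference was -0.38; KIF20A, needed for cytokinesis, fell by 2.52. At the centromere, 17 of 38 tested members rose and 18 fell, with 3 and 8 of them at 2-fold or more, and the median difference was -0.07 (-0.18 to 0.030 over the alternatives): CENPF and HJURP fell by 2.01 and by 1.62, and CENPK rose by 1.60. Of core and linker histones, 13 of 19 tested members rose and 4 fell, with 6 and 1 of them at 2-fold or more, and the median difference was 0.59 (0.28 to 0.69 over the alternatives); H2AC6 and H2BC5, replication-type genes whose close copies share probe sequence, rose by 3.64 and by 3.14. Targets of p53 leaned lower: 9 of 28 tested members rose and 17 fell, with 4 and 7 of them at 2-fold or more, and the median difference was -0.52; CYFIP2 fell by 2.34 and FAS, a death receptor, rose by 1.81. In the BCL2 and caspase list, 16 of 26 tested members rose and 9 fell, with 6 and 4 of them at 2-fold or more, and the median difference was 0.21; the pro-apoptotic PMAIP1 rose by 2.80, and BCL2 fell by 2.57.

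Transporters and signalling enzymes of the membrane changed gene by gene. Of solute carriers, the largest transporter family tested, 72 of 175 tested members rose and 79 fell, with 31 and 34 of them at 2-fold or more, and the median difference was 0.02 (-0.0014 to 0.12 over the alternatives). SLC22A15 rose by 3.85 and SLC27A5, a bile acid ligase, fell by 3.36. For ABC transporters, 6 of 23 tested members rose and 17 fell, with 2 and 7 of them at 2-fold or more, and the median difference was -0.76 (-0.80 to -0.45 over the alternatives), with 2 members near the floor in both arms and 6 in 1 arm. ABCB5, a melanoma stem cell marker, averaged 7.56 on the GFP arrays and was near the floor with FHL2 shRNA, and ABCA8 fell by 5.43. Among phosphodiesterases, adenylate cyclases and kinase anchors, 9 of 32 tested members rose and 13 fell, with 2 and 7 of them at 2-fold or more, and the median difference was -0.13 (-0.24 to -0.032 over the alternatives); PDE3A fell by 3.78, PDE4D rose by 2.25 and ADCY9 fell by 2.29. Of cancer-testis antigens, 13 of 23 tested members rose and 6 fell, with 7 and 4 of them at 2-fold or more, and the median difference was 0.57 (0.28 to 0.67 over the alternatives). PAGE1, an X-linked member, read 5.63, 5.72 and 5.88 on the GFP arrays and 11.67, 11.72 and 11.73 on the FHL2 shRNA arrays, and CT83 rose by 5.04; members of the MAGEA group are close copies, and their values may mix.

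Zinc finger genes were counted as the largest family. Of those named ZNF, 161 of 338 tested members rose and 124 fell, with 57 and 38 of them at 2-fold or more, and the median difference was 0.15 (0.052 to 0.25 over the alternatives). Ordered by RefSeq position, a run of 22 neighbouring tested genes from ZNF506 to LINC00662, 19 of them named ZNF, was called higher throughout, with differences from 0.81 to 5.23 and a median of 1.97. The run was singled out after the values were seen, and 8 of its genes were near the floor in the GFP arm only and 2 in both arms. ZNF91, one of its members well above the floor, read 7.81, 7.73 and 7.89 on the GFP arrays and 9.83, 9.77 and 9.89 on the FHL2 shRNA arrays. In the NFYA shRNA arm the median over the same 22 genes against the shared GFP arrays was 2.22, and in C32 cells, FHL2 shRNA minus GFP, it was -0.03. These genes are recent duplicates, so that probe sets can read more than 1 of them.

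**Figure D5:**
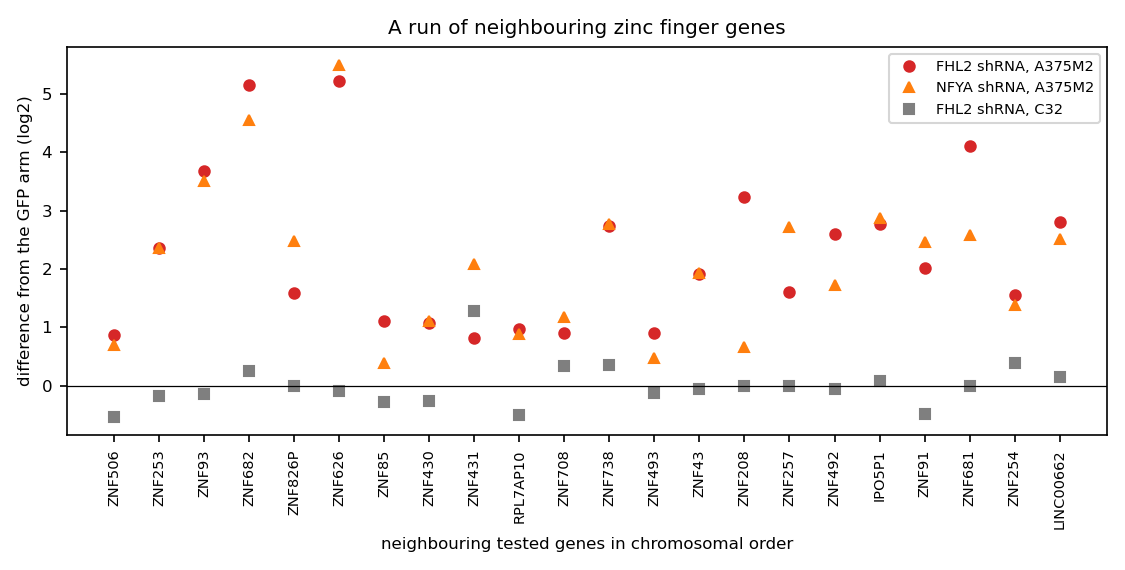
Log2 difference from GFP (vertical axis) for the 22 neighbouring genes from ZNF506 to LINC00662 in order along the chromosome (horizontal axis, order only), for FHL2 shRNA in A375M2 (circles), NFYA shRNA in A375M2 (triangles) and FHL2 shRNA in C32 (squares). The A375M2 points lie above 0 for FHL2 shRNA at every gene, while the C32 points have a median of -0.03.

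The largest differences with both arms above the floor were led by AXL, IL1A, IL24, KLF5 and S100A2 among the rises and LINC00520, SERPINF1, SPP1, CAPN3 and NPTX1 among the falls. The other probe set of SPP1 went the opposite way. KLF5, an epithelial transcription factor, read 5.23, 5.99 and 5.58 on the GFP arrays and 12.51, 12.67 and 12.64 on the FHL2 shRNA arrays. LINC00520, a long non-coding RNA, read 12.87, 12.78 and 12.85 on the GFP arrays and 5.86, 5.11 and 5.38 on the FHL2 shRNA arrays. Both pairs of arms were far apart, at 7.01 and -7.38. ITIH5, a hyaluronan-binding secreted protein, fell by 6.22, TF, transferrin, fell by 5.75, and PTGS2, the inducible cyclooxygenase, rose by 5.66.

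The NFYA shRNA arm also carries lentiviral hairpins, against another gene, and a direct contrast sets the 2 shRNA arms side by side. Between FHL2 and NFYA shRNA, 7672 genes were called (70.1%), and 1137 reached a deposited difference of 1 or more, against 3431 between FHL2 shRNA and GFP. Among genes at 2-fold in the main comparison, FST, the activin-binding follistatin, stood apart: it read 10.30, 10.59 and 10.58 on the GFP arrays and 13.98, 14.10 and 14.16 on the FHL2 shRNA arrays, and the NFYA arm averaged 10.43. Its difference from GFP was 3.59 with FHL2 shRNA and -0.06 with NFYA shRNA, which share the GFP arrays, and the direct contrast was 3.65 (SE 0.08, adjusted p = 1.75e-16). PAGE1 and HBE1, an embryonic globin, were likewise higher with FHL2 shRNA than with NFYA shRNA, by 5.49 and 3.85. CTSK, HMCN1, a basement membrane protein, and MEOX2, a homeobox factor, lay between GFP and NFYA shRNA: they fell by 3.15, by 2.20 and by 1.19 against GFP and were 3.67, 3.94 and 3.91 above the NFYA arm. IL1B, MMP10 and FDCSP, all near the floor on the GFP arrays, and ACP3 rose with FHL2 shRNA against GFP but lay below the NFYA arm, with differences of -3.30, -3.83, -7.46 and -3.45. For the amino acid genes the direct contrast was small beside the difference from GFP, at 0.31 for ASNS and 0.51 for BCAT1.

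In C32 cells FHL2 differed by -5.24 between the shRNA and GFP arms, and the effect of FHL2 shRNA differed between the lines at 8772 genes (80.2%). KLF5 rose by 7.01 in A375M2 and changed by -1.66 in C32, AXL rose by 7.29 and changed by -2.22, and IGFBP3, which rose by 0.40 in A375M2, changed by -8.25 in C32; AXL and IGFBP3 were near the floor in the C32 shRNA arm. COL8A1 fell by 5.21, with the shRNA arm near the floor, in A375M2 and differed by 3.06 in C32. ASNS differed by -2.70, BCAT1, near the floor in both C32 arms, by -0.01, PFKFB2 by 0.41 and MITF by -0.76 in C32, against 3.82, 5.14, -3.33 and -4.18 in A375M2, with adjusted p-values of the difference between lines of 3.65e-22, 2.3e-18, 1.05e-11 and 1.12e-16. C32 and A375M2 arrays of an arm were read as groups of 3, except that 1 C32 GFP array was left out of the fit.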

How the data were processed

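RNA of the 18 samples was hybridised to Affymetrix 3′ expression arrays per the labels' protocols, and the values the authors deposited are on a log2 scale; the submitters' processing notes name GCRMA (version and genome build not given in the sources used here). GCRMA subtracts a sequence-based background, which sets the floor of low values. Of 23416 probe sets, 20264 carried 1 gene symbol, 995 several and 2099 none, beside 58 controls; 20254 symbols were updated by Entrez ID in RefSeq. Probe sets at log2 4 or more on at least 3 arrays were kept, and the one of highest mean stood for its gene. Linear models of limma 3.58.1 (R 4.3.3), with trended eBayes variances, were fitted to 17 arrays, with 11 residual degrees of freedom and no replicate term; 1 C32 GFP array was left out. P-values were adjusted over 10940 genes. On simulated data for this comparison, 52%, 82% and 96% of genes changed by 0.25, 0.5 and 1 were recovered. Few genes were changed there and no floor was set, unlike in these data, where most genes were called.

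The deposited values carry no depth; the number of arrays limits the precision. Gene lists and the genes named were chosen with earlier results of these data known. For each list, up to 6 called members with the largest difference and up to 2 with the highest GFP level were available for naming; the line contrast took 5 genes each way and the NFYA contrast 6. TYR, for its promoter, ZNF91 and LYZ were named after their values were seen. Same-numbered arrays did not vary together (correlations of deviations 0.04, 0.08 and 0.00). Alternatives covered the floor, scaling, probe set choice, filter, variance model, array set, array weights, threshold and each array left out.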

Additional observations from a re-analysis of the deposited data

Results flagged for a closer look

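The effect of FHL2 shRNA differed between A375M2 and C32 by limma's interaction test for 10 genes chosen by the size of that difference among named genes called in both lines. The difference of the effects (A375M2 minus C32, log2) was 9.51 for AXL, 9.09 for SERPINH1, 8.67 for KLF5, 8.65 for IGFBP3 and 8.52 for MMP1. It was -8.78 for SOX9, -8.27 for COL8A1, -8.16 for PPP1R3C, -7.89 for COL14A1 and -7.78 for GPM6B. AXL, SERPINH1, KLF5, IGFBP3, COL8A1 and COL14A1 moved in opposite directions in the 2 lines, and MMP1, SOX9, PPP1R3C and GPM6B in the same direction; IGFBP3 differed by 0.40 in A375M2 and -8.25 in C32, so that its value comes almost wholly from C32. SERPINH1, MMP1, SOX9, COL8A1, PPP1R3C, COL14A1 and GPM6B were near the floor in 1 A375M2 arm.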

How the results depend on the processing

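All 7 counts of called genes stayed within 1.5 times their value under every alternative that was run; the 2-fold counts ran from 1374 to 1860 higher and from 1556 to 2035 lower. With the replicate block, 9277 genes were called in place of 9341, 4451 higher and 4826 lower, with 1516 and 1638 at 2-fold; 7559 were called between the shRNA arms and 8590 between lines, and the same-numbered arrays are not paired by the labels. Of 226 genes named with values, 220 kept direction and call throughout; NARS1, not called, read 0.0730 with each array centred. Centring moved the median of all genes from -0.0371 to 0.0629.

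Of 58 list medians, 12 changed sign under at least 1 alternative. Most of these were near 0, but those of growth factor ligands and junction genes stood at 0.22 and -0.28. The median of interferon-stimulated genes was 0.00 with values under log2 4 set to 4, 0.0031 with each array centred, 0.10 with the mean of probe sets and 0.0236 with the filter at log2 6. For SRF and MRTF genes it was 0.0053 with values under log2 5 set to 5, 0.0303 centred, 0.0208 after quantile normalization and 0.0106 with the filter at log2 6. Receptor kinases gave 0.0236 centred, 0.28 with the probe set of largest variance and 0.20 with the mean of probe sets, and growth factor ligands gave -0.54 with that mean and -0.61 with the filter at log2 6. Mitochondrial ribosomal proteins gave -0.0433 with the probe set of largest variance and with the filter at log2 6, -0.0315 with the mean and -0.0173 with array weights, and from -0.0102 to 0.0246 with 1 array left out. The proteasome gave -0.0157 and -0.0450 with the probe set choices, MAPK output -0.0068 with the mean, and Notch 0.0403, glutathione genes 0.0020 and centromere proteins 0.0303 centred. Junction genes gave 0.00 with values under log2 4 set to 4 and 0.0625 with the filter at log2 6. With 1 array left out, Notch ran from -0.1498 to 0.0313 and solute carriers from -0.0014 to 0.0359. The cause was not tested.

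With 3 arrays an arm and no non-targeting hairpin, the comparison cannot tell the hairpins' target from their vector. The lowest value of an array was 0.60 on the GFP arrays and 0.53 on the FHL2 shRNA arrays. The labels name no sets of arrays, and a difference in processing, if there was one, cannot be told apart from arm.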

Other observations

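Runs of neighbouring genes were counted in A375M2 with FHL2 shRNA. With the 10920 tested genes that RefSeq places on a chromosome in order, 35 runs of 10 or more consecutive genes were called in 1 direction, 14 higher and 21 lower, holding 454 genes in all. Beside the zinc finger run, 10 genes from CXCL8 to G3BP2, which take in CXCL1, CXCL2, CXCL3 and BTC, rose with a median of 1.99, and 16 genes from MBD3 to LMNB2 and 17 from ABCA7 to REEP6 fell with medians of -1.41 and -1.11. With NFYA shRNA, against the same GFP arrays, the medians of these 3 runs were 3.41, -1.17 and -0.76, and in C32 with FHL2 shRNA they were 0.00, 0.12 and 0.00. The runs were found by searching these values, with 85.4% of all genes called, and no test was made of them.

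By base composition, the median difference ran from 0.02 in the fifth of genes whose 250 bases before the start hold the least G and C (26.4% to 55.6%) to -0.15 in the fifth that hold the most (74.0% to 96.4%), over the 9058 tested genes (82.8%) with such a window. In C32 those medians were 0.00 and -0.05.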
